A study of Mus musculus with 4 samples.

Results

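The 96 nuclear genes of oxidative phosphorylation were followed in the gonads of XX mouse embryos, in germ cells from before to after the first appearance of high Stra8, and in the somatic cells around them. They are the rows of the deposited table whose symbol starts with Nduf, Uqcr, Atp5, Sdh followed by a to d, or Cox4 to Cox8, without names that hold -ps, and they make up 96 of 19321 rows. By the complex their products belong to, 43 are of complex I, 8 of complex II, 8 of complex III, 20 of complex IV and 15 of complex V. The other 2 (Atp5s and Atp5sl) encode proteins that are not subunits and were placed in no complex. Ndufa4, which carries a complex I name, was placed with complex IV, where its protein is now assigned. The 13 protein-coding genes of the mitochondrial genome, the mt- rows, were read beside them.

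Oxidative phosphorylation makes ATP in the inner mitochondrial membrane. Complexes I and II take electrons from NADH and succinate, complex III passes them to cytochrome c, complex IV hands them to oxygen, and the proton gradient built on the way drives complex V, the ATP synthase. Complexes I, III, IV and V are mosaics of nuclear and mitochondrial gene products, whereas complex II is built from nuclear genes alone. Several complex IV subunits come in alternative isoforms, some of which are known from testis, heart and skeletal muscle or lung. In the fetal ovary, germ cells leave the mitotic cycle and enter meiosis asynchronously, and Stra8, a gatekeeper of meiotic entry that retinoic acid induces, marks that step.

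Gonads of C57BL/6 XX embryos were digested to single cells and profiled with the 10x Chromium 3′ kit, version 2, with 1 library for each day from E11.5 to E14.5; the labels name no transgene, treatment, embryo age other than the stage, or number of pooled embryos. The libraries hold between 4787 and 4916 cells and between 69458291 and 80377418 UMIs (unique molecular identifiers, 1 per captured transcript). Germ cells were the cells with a UMI of at least 3 of Dazl, Ddx4, Dnd1, Mael, Dppa5a and Mov10l1, and numbered 245, 650, 753 and 2410 in stage order. Between 97.5% and 99.6% of them lay in clusters named as germ cells from these same genes, which the clustering itself did not use. The genes of the rule summed to 2297 CPM in germ cells against 48.5 CPM in supporting-like cells at E14.5. Supporting-like cells were taken outside the rule, so this contrast was set by the rule and is no check of it. CPM, the usual count unit scaled to library size, is the summed UMIs of a gene set against the total UMIs of the same cells, so that 10000 CPM is 1% of their UMIs. Somatic cells came from clusters named by their markers: supporting-like (2304, 2205, 1796 and 627 cells), interstitial-like (641, 573, 1125 and 575) and endothelial-like (158, 192, 123 and 59). Clusters led by Upk3b and similar genes stayed unnamed (1292, 1050, 869 and 714 cells). With 1 library per stage neither a test nor a p-value could be given, and a stage cannot be told apart from its library. The 95% intervals, exact Poisson for CPM and exact binomial for ratios, cover counting error only. A difference was called when a gene had at least 50 UMIs over both groups and the group with more of it had 20 CPM or above, with a ratio from 1.5 up and Poisson intervals that did not overlap; "rose", "fell", "higher" and "lower" are used of single genes that met this rule. Of the cell barcodes, 175 occurred in more than 1 library; without the cells that carry them the sum of the 96 genes in germ cells changed by 0.09 between E11.5 and E14.5, as with them, and 31 genes were called in place of 30.

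Germ cells gave more of their transcripts to the nuclear genes of oxidative phosphorylation than the named somatic classes did in each of the 4 libraries. The summed level of the 96 genes in germ cells was, in stage order, 40886, 41077, 38779 and 43609 CPM. In supporting-like cells it was 36377, 30017, 28809 and 29397 CPM, and so declined mainly between E11.5 and E12.5. Interstitial-like cells went from 32288 to 27344 CPM and endothelial-like cells from 31955 to 27387 between the first and the last stage. The log2 ratio of germ to supporting-like cells was, in the same order, 0.17 (0.16 to 0.17), 0.45, 0.43 and 0.57 (0.56 to 0.58), a 1.48-fold difference at the last stage. On a scale with the median gene held level in place of the total, this ratio was 0.53, 0.61, 0.52 and 0.60. Its increase from E11.5 to E14.5 thus depends on the scale. Between E11.5 and E14.5 the supporting-like sum moved by -0.31 (-0.31 to -0.30) on the log2 scale and the germ cell sum by 0.09 (0.088 to 0.098). The direction of that small germ cell change depends on the scale: with the median gene held level in place of the total, it was -0.20, because the median of all rows moved by 0.29. Median UMIs per germ cell went from 31268 to 15541 over the same stages, and summed erythroid markers in germ cells from 2590 to 4541 CPM; the part of either in the change was not tested.

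The transcripts of the mitochondrial genome ran the other way between the cell types. Their sum in germ cells was 30514, 29268, 33288 and 27336 CPM in stage order, and in supporting-like cells 40009, 37165, 51831 and 51793 CPM. On the CPM scale germ cells were below supporting-like cells at each stage, by -0.39 in log2 at E11.5 and by -0.92 (-0.93 to -0.92) at E14.5. The median ratio of all rows was -0.36 at E11.5 and -0.03 at E14.5, so the E11.5 difference depends on the scale. With the median gene held level, 1 mt- gene (mt-Co2) was higher and 1 (mt-Nd5) lower in germ cells at E11.5. At E14.5, 0 were higher and 12 lower on that scale. The number of mt- UMIs per UMI of the 96 nuclear genes was 0.746, 0.713, 0.858 and 0.627 in germ cells and 1.10, 1.24, 1.80 and 1.76 in supporting-like cells. Interstitial-like cells lay between them at each stage, from 0.982 to 1.18. The mt- sum was higher at E13.5 than at E12.5 in germ, supporting-like, interstitial-like and endothelial-like cells alike, so a difference of the whole E13.5 library cannot be told apart from a change in the cells.

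**Figure D1:**
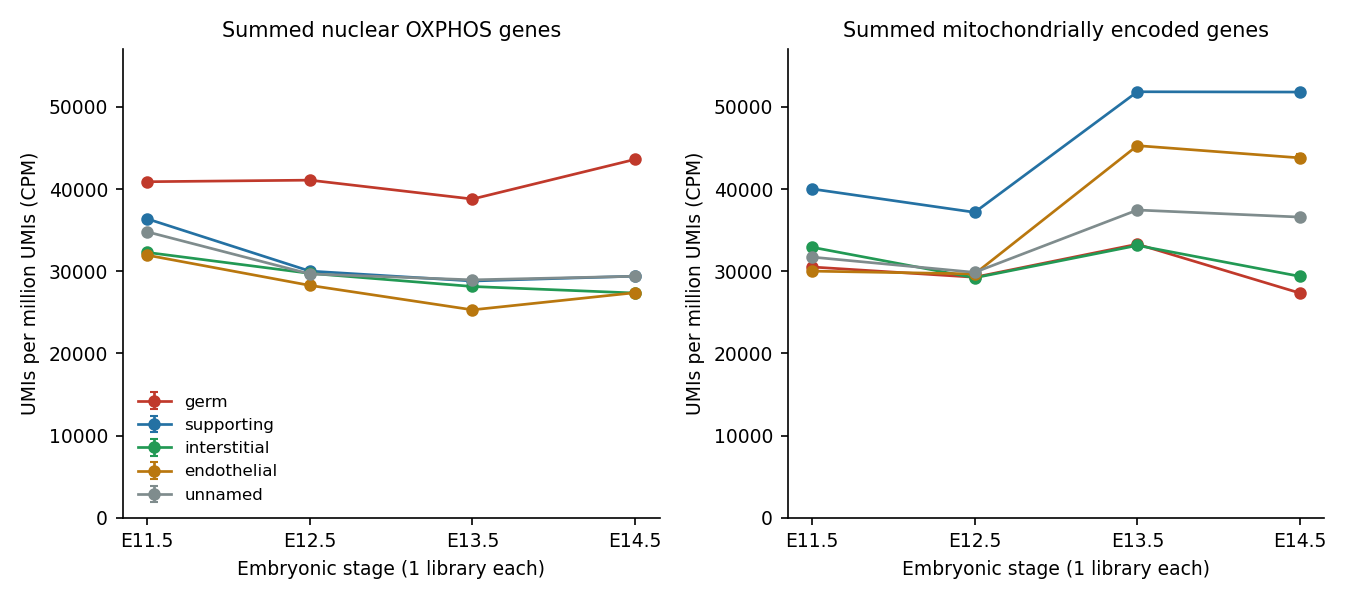
Summed level of the 96 nuclear genes of oxidative phosphorylation (left) and of the 13 mitochondrially encoded genes (right), in CPM of the class (vertical axis), at the 4 stages (horizontal axis, 1 library each); bars, mostly smaller than the points, are exact Poisson 95% intervals and "unnamed" holds the Upk3b-led clusters. Germ cells lie highest on the left, from 38779 to 43609 CPM, and supporting-like cells highest on the right, from 37165 to 51831 CPM.

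Within germ cells the complexes did not move together from E11.5 to E14.5. The sum of complex I genes was 11233 CPM at first and 14507 CPM at last, or 0.37 (0.36 to 0.38) on the log2 scale, and that of complex II went from 540 to 823 CPM, a change of 0.61 (0.56 to 0.65). The sums of complexes III, IV and V moved by -0.001 (-0.019 to 0.016), -0.06 (-0.07 to -0.05) and -0.03 (-0.04 to -0.02). Of the 96 genes, 87 passed the minimums; 21 of them were higher at E14.5 and 9 lower, or 24.1% and 10.3%, where 37.1% of all 5739 rows that passed were higher and 16.5% lower. The share called was thus below that of all rows in both directions, and the median change was 0.19 against 0.29 over all rows. With the median gene held level the split became 10 higher and 15 lower. The 10 were Ndufs1, Atp5f1, Sdhc, Ndufaf1, Ndufa1, Ndufv2, Sdhb, Uqcrc2, Uqcrc1 and Ndufa6, while Ndufs5 (0.56), Sdha (0.42) and Cox7a2l (0.38) are among those that met the rule on the CPM scale alone. Since the median of all rows moved by 0.29, the sums of complexes I and II lay above that shift and those of III, IV and V below it.

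Between neighbouring stages, most calls among these genes lay in the last interval, as did most calls over all rows. From E11.5 to E12.5, 0 of 85 genes that passed were higher and 0 lower (10.9% and 1.82% of all rows), and from E12.5 to E13.5, 0 of 85 were higher and 1, Ndufaf3, lower (5.31% and 4.32%). From E13.5 to E14.5, 14 of 86 were higher and 5 lower (21.7% and 9.31% of all rows), or 8 and 5 with the median gene held level. On the CPM scale both shares in that interval lay below those of all rows. In level on the CPM scale, 50 of the 87 genes stood highest at E14.5. Of these 87, 18 increased in value at each of the 3 steps and 8 declined in value at each. The median of all rows also moved up, by 0.29 in log2 from E11.5 to E14.5 and by 0.16 from E13.5 to E14.5. Counts of these shapes over all rows are not given, so they cannot be told apart from that general shift.

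Of the 21 rises 14 were in complex I, where 14 of 43 genes (32.6%) were higher at E14.5, beside 37.1% of all rows, and 2 lower. With the median gene held level 5 of the 43 were higher and 4 lower. Its 7 nuclear core subunits, which carry the flavin and the iron-sulfur clusters, had values above those of E11.5 in 7 of 7 cases, and 4 of them rose. Ndufs1, the largest core subunit and an iron-sulfur protein (chromosome 1, 63143592 to 63176822, GRCm38), stood at 26.5, 32.9, 36.5 and 80.0 CPM in stage order, a change of 1.60 (1.39 to 1.80) that lay largely in the last step. Ndufv2, which binds an iron-sulfur cluster next to the site of NADH oxidation, stood at 146, 139, 162 and 285 CPM, a change of 0.96. Ndufv1, the flavin-binding subunit, also rose (108 to 192 CPM, 0.84).

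Among the 29 accessory subunits, which surround the core, 7 rose and 0 fell. Ndufa1 and Ndufa6 stayed higher with the median gene held level, and Ndufb3 was then lower. Ndufa1, a small membrane-arm subunit encoded on the X chromosome (37187588 to 37191238), stood at 154, 156, 177 and 318 CPM, a change of 1.04 (0.96 to 1.13). Ndufa6 went from 465 to 860 CPM (0.89) and Ndufs5 from 438 to 791 CPM (0.85). The X chromosome carries 3 of the 96 genes, and they differed in direction: Ndufa1 rose, Cox7b fell, and Ndufb11 changed by 0.43 without meeting the rule.

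The 7 genes classed here as complex I assembly factors, which build the enzyme without staying in it, split into 3 that rose and 2 that fell. Of those that rose, Ndufaf1 alone stayed higher with the median gene held level, and Ndufaf6 was then lower as well. Ndufaf1, which helps to assemble the membrane arm, stood at 17.6, 21.4, 24.3 and 38.4 CPM, a change of 1.12 (0.87 to 1.38). Ndufaf3 and Ndufaf4, which act together early in assembly, went the other way. Ndufaf3 stood at 37.4, 29.2, 18.6 and 13.95 CPM, a change of -1.42 (-1.63 to -1.22), and Ndufaf4 at 90.5, 98.6, 84.4 and 55.4 CPM, a change of -0.71. Ndufaf3 thus declined over the whole series, whereas Ndufaf4 was lowest at E14.5, and was not called at the first 2 steps.

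In complex II, the succinate dehydrogenase that also serves the citric acid cycle, 3 of the 4 subunits rose, beside 37.1% of all rows. Sdhc, a membrane anchor, stood at 49.0, 43.1, 52.1 and 110 CPM, a change of 1.17 (1.02 to 1.33), with nearly all of it in the last step. Sdhb, the iron-sulfur subunit, went from 156 to 296 CPM (0.92), and Sdha, the flavoprotein, from 88.5 to 144 CPM (0.71). Sdhd, the other anchor, had 50.03, 44.4, 56.6 and 63.7 CPM, a change of 0.35 that did not meet the rule. Of the 4 assembly factors, Sdhaf2 and Sdhaf4 passed the minimums and neither was called; Sdhaf1 and Sdhaf3 were at most 16.8 CPM in germ cells at any stage.

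In complex III 2 of 8 genes rose and 3 fell, beside 37.1% and 16.5% of all rows. The same genes were called with the median gene held level. The core proteins Uqcrc1 (177, 198, 233 and 330 CPM, 0.90) and Uqcrc2 (105, 112, 129 and 199 CPM, 0.91) were higher at E14.5. Among the small subunits Uqcrq (670, 550, 416 and 385 CPM, -0.80) and Uqcr10 (849, 799, 595 and 564 CPM, -0.59) fell, as did Uqcrfs1, the Rieske iron-sulfur protein (224, 184, 159 and 146 CPM, -0.62). The other small subunits were not called: Uqcrh went from 679 to 881 CPM (0.38) between the first and the last stage, Uqcr11 from 847 to 981 CPM (0.21) and Uqcrb from 437 to 499.6 CPM (0.19). The 3 that fell declined in value at each step, and the 2 core proteins increased in value at each step, and the summed level of the complex hardly moved.

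Many of the 96 genes have processed pseudogenes elsewhere in the genome, and how reads of such copies were counted is not given in the sources used here. In complex IV, 2 of 11 common subunits fell and 0 rose, beside 16.5% and 37.1% of all rows. Cox6b1 and Cox7a2 were lower as well with the median gene held level. Cox8a, the common isoform of a small membrane subunit (chromosome 19, 7215158 to 7217616), stood at 1122, 1145, 1006 and 453 CPM, a change of -1.31 (-1.34 to -1.27). Cox7b, another small membrane subunit (chromosome X, 106015700 to 106022450), stood at 556, 641, 608 and 283 CPM, a change of -0.97 (-1.02 to -0.92). Both lay within 1.5-fold over the first 3 stages and dropped by more than 1 on the log2 scale between E13.5 and E14.5, by -1.15 for Cox8a and -1.10 for Cox7b. Cox7a2l, classed here as a factor for supercomplexes of complexes III and IV, rose from 313 to 498 CPM (0.67). Cox4i1, the common form of a regulatory subunit, went from 1619 to 2123 CPM (0.39), and Cox7c, the most abundant of the 96 genes in germ cells, stayed between 3497 and 3583 CPM.

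The 15 subunits of complex V included 1 that rose and 1 that fell, beside 37.1% and 16.5% of all rows. Atp5d and Atp5l were lower as well with the median gene held level. Atp5f1, subunit b of the peripheral stalk (chromosome 3, 105942698 to 105959263), stood at 327, 342, 412 and 765 CPM, a change of 1.23 (1.17 to 1.28). Atp5k, subunit e of the membrane part, stood at 676, 563, 446 and 364 CPM, a change of -0.89, and declined in value at each step. Atp5l, subunit g, had 946 and 669 CPM at E11.5 and E14.5, a change of -0.50 short of the rule on the CPM scale. Atp5sl, which carries an ATP synthase name but was placed in no complex here, fell from 46.9 to 21.7 CPM (-1.11).

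**Figure D2:**
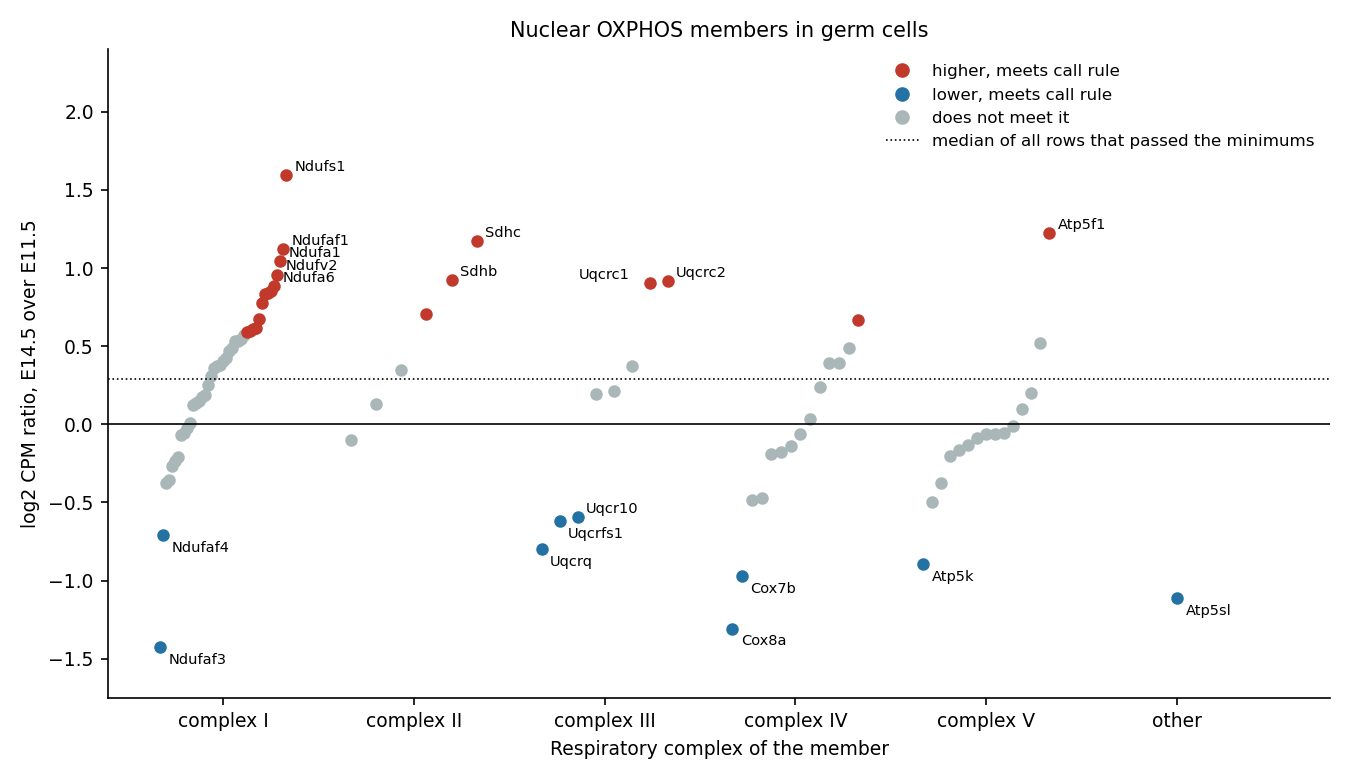
Log2 ratio of CPM at E14.5 over E11.5 in germ cells (vertical axis) for the 87 genes that passed the minimums, by complex (horizontal axis; within a complex, genes are in order of their value); red points were called higher, blue lower, grey neither, and the dotted line is the median of all rows that passed, 0.29. Of the 21 red points 17 lie in complexes I and II, up to 1.60 for Ndufs1, and the lowest points are Ndufaf3 at -1.42 and Cox8a at -1.31.

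Promoters of 24 of these genes hold the core of the site for NRF1, a factor known to act on nuclear genes of respiration. The motif was searched as GCGCANGCG and, on the other strand, CGCNTGCGC, in 250 bases before and 50 after each annotated start in RefSeq (GRCm38.p6). It was present for 24 of the 80 genes with a promoter in that table, against 12.2% of the 13635 genes of the data table and 7.03% of all 27025 genes with a promoter. Among the genes that passed the minimums and have a promoter, it was found in 6 of 17 that rose, 2 of 8 that fell and 15 of 50 that were not called, and the median change was 0.21 with the motif and 0.16 without. Of these 8 called genes, 5 have a match wholly before the start, and their bases around it are printed 5′ to 3′ on the strand of the gene, with every match in capitals, on either strand and overlapping ones included, to show that matches to the motif lie before genes of both directions. The matched letters are not the same in all 5. Ndufa8, Ndufs5 and Sdha rose; Atp5k and Ndufaf4 fell.
Ndufa8 (minus strand, chr2:36049339-36049397): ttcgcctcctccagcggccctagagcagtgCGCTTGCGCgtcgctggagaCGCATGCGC
Ndufs5 (minus strand, chr4:123718246-123718314): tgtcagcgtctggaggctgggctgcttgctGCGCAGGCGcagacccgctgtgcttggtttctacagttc
Sdha (minus strand, chr13:74350300-74350368): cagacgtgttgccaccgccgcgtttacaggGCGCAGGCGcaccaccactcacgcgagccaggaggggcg
Atp5k (minus strand, chr5:108434411-108434479): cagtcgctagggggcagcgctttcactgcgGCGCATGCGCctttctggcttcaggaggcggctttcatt
Ndufaf4 (plus strand, chr4:24897940-24898008): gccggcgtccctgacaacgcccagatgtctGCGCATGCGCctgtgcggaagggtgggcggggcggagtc

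A match is a description of letters, and binding was not measured.

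Among the alternative isoforms of complex IV, Cox7a1 alone was called higher in germ than in supporting-like cells at E14.5. Several others were at low levels, and Cox6b2 was not called there. Cox7a1, known as the heart and muscle form (chromosome 7, 30184171 to 30186030), stood at 113, 131, 176 and 159 CPM among germ cells and at 12.1, 15.3, 30.05 and 36.4 CPM in supporting-like cells. Its log2 ratio of germ to supporting-like cells was 3.22 (3.05 to 3.40) at E11.5 and 2.13 (1.95 to 2.31) at E14.5, and in supporting-like cells it was called higher at E14.5 than at E11.5 (1.59). Because the assay counts 3′ ends, shares within an isoform set compare transcript ends without regard to length. Cox7a1 gave 5.72% to 9.43% of the UMIs of the Cox7a1, Cox7a2 and Cox7a2l set in germ cells and 1.02% to 3.14% in supporting-like cells. In the same set Cox7a2 led in germ cells (78.5% at E11.5 and 63.1% at E14.5), whereas Cox7a2l led in supporting-like cells from E12.5 on (59.0% to 62.9%).

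Cox8c and Cox7b2, forms known from testis, were rare. Cox8c had 5.04, 3.65, 4.04 and 12.2 CPM in germ cells and 0 UMIs in supporting-like cells at E14.5, where 3 counts is the floor. Its share of the Cox8 set in germ cells was 0.447% at E11.5 and 2.62% at E14.5, with Cox8a falling at the same time. Cox7b2 lay between 5.90 and 9.70 CPM in germ cells and at most 0.817 CPM in supporting-like cells. Both stayed under the minimum of 20 CPM, so neither could be called. Cox6b2, also known from testis, differed from them: it stood at 183, 207, 209 and 162 CPM among germ cells and at 278, 228, 193 and 158 CPM in supporting-like cells, so the classes converged. Cox4i2, Cox6a2, Cox8b and Ndufa4l2 did not exceed 4.35 CPM in germ cells at any stage, and Cox8b had 1 UMI in germ cells over all 4 libraries.
The 3 genes of the c-ring of ATP synthase, Atp5g1, Atp5g2 and Atp5g3, encode nearly the same mature protein, and reads could be split among them or their pseudogenes. In germ cells Atp5g1 stood at 1446 and 1389 CPM at E11.5 and E14.5 and Atp5g2 at 1294 and 1242, each above supporting-like cells at both stages, while Atp5g3 went from 350 to 501 CPM (0.52) without meeting the rule.

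Germ cells with high Stra8 differed from those without it in few of the 96 genes, at both stages where both groups existed. Germ cells were divided into those with 0 UMIs of Stra8, a low level, or at least 500 CPM of it. At E13.5 these groups held 370, 306 and 77 cells and at E14.5 120, 548 and 1742 cells. At E14.5, 7 of 87 genes were higher with high than with no Stra8 and 5 lower (21.9% and 17.3% of all rows). At E13.5, 6 of 85 were higher and 4 lower (16.1% and 10.4% of all rows), or 2 and 5 with the median gene held level. Sdhc, Ndufa1, Atp5f1 and Ndufv2 were higher in both libraries, which is 66.7% of the E13.5 and 57.1% of the E14.5 genes called higher, and Cox7b, Cox8a, Ndufaf4 and Ndufaf6 were lower in both, 100% and 80.0% of those called lower. Over all rows that passed in both libraries, 68.0% of those called higher at E13.5 and 56.9% of those called higher at E14.5 were higher in the other too, and of those called lower 82.4% and 51.1%. With the median gene held level, Sdhc and Atp5f1 were the 2 that stayed higher at E13.5, while Ndufa1 and Ndufv2 did not meet the rule there.

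Of the genes called at E14.5, Cox8a and Cox7b had the largest differences. Cox8a at E14.5 stood at 970 CPM with no Stra8, 789 with low and 270 with high Stra8, a log2 difference of -1.85 (-1.91 to -1.78) between high and none; at E13.5 it stood at 1077, 1009 and 567 CPM (-0.93). Cox7b at E14.5 stood at 551, 497 and 172 CPM (-1.68), and at E13.5 at 635, 617 and 403 CPM (-0.66). At both stages the low group lay closer to the group without Stra8 than to the high group. Ndufaf4 at E14.5 stood at 90.0, 80.1 and 42.2 CPM (-1.09) and Ndufaf6, another complex I assembly factor, at 47.7, 43.8 and 24.7 CPM (-0.95). Ndufaf3 had 29.2, 14.9 and 12.2 CPM at E14.5 (-1.26).

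Ndufa1 had the largest difference at E14.5 of the genes that were higher with Stra8. It stood at 156, 224 and 371 CPM at E14.5 in the order none, low and high (1.25, 1.10 to 1.40) and at 161, 181 and 259 CPM at E13.5 (0.69). Sdhc stood at 62.4, 76.6 and 129 CPM at E14.5 (1.04) and at 47.2, 49.7 and 92.8 CPM at E13.5 (0.98). At E13.5 the log2 difference of Sdhc was above that of Ndufa1. Atp5f1 stood at 467, 635 and 846 CPM at E14.5 (0.86) and Ndufv2 at 194, 224 and 318 CPM (0.71). Ndufs1 was called at E14.5 (56.7, 59.7 and 90.3 CPM, 0.67) and not at E13.5 (33.7, 38.7 and 42.8 CPM), and whether the stages differ was not tested.

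**Figure D3:**
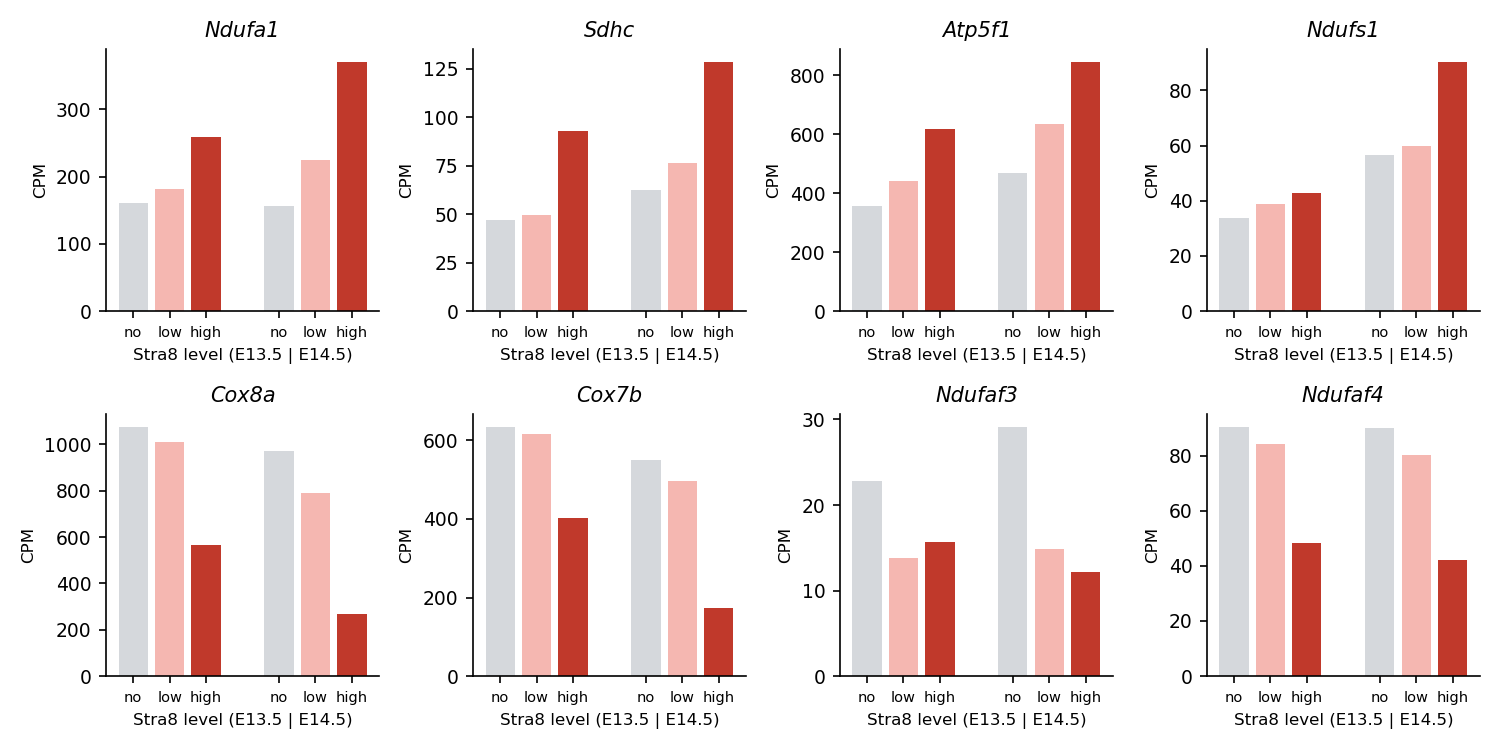
Level in CPM (vertical axes, from 0) of 8 genes in germ cells with no, low and high Stra8 (horizontal axis; left triplet E13.5, right triplet E14.5); each bar is the summed UMIs of 1 group of cells from 1 library. Ndufa1, Sdhc, Atp5f1 and Ndufs1 are highest with high Stra8 at both stages, and Cox8a, Cox7b and Ndufaf4 lowest, with Cox8a at 270 CPM at E14.5.

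The summed level moved little between the Stra8 groups. At E14.5 the 96 genes together stood at 39584 CPM with no, 42260 with low and 44521 with high Stra8, a difference of 0.17 (0.16 to 0.18) between high and none that was 0.092 with the median gene held level, and the mt- rows at 31027, 27905 and 26773 CPM, a difference of -0.21. At E13.5 the nuclear sums were 38626, 38573 and 40658 CPM (0.07, or -0.03 with the median gene held level) and the mt- sums 33617, 33600 and 29869 CPM (-0.17). The 120 cells without Stra8 at E14.5 are a mixed group. Of them 24 lay outside the germ cell clusters, against 5 of 1742 with high Stra8, and their summed supporting cell markers stood at 467 CPM against 130 with high Stra8 and 3708 in supporting-like cells. With the cells in germ cell clusters alone (96 and 1737), the nuclear difference was 0.10 and the mt- difference -0.13, while Cox8a (-1.85), Cox7b (-1.82), Ndufa1 (1.19) and Sdhc (1.33) had these values, and 6 genes were higher and 5 lower. Cells with high Stra8 also had fewer UMIs (median 14720 against 19345 without). The nuclear sum at E14.5 was also taken in 3 equal bands of depth, from the shallowest to the deepest. With high and no Stra8 it was 46001 and 34875, 44701 and 40473, and 43059 and 40159 CPM. The group without Stra8 holds 26, 23 and 71 cells there, with the 24 outside the germ cell clusters among them. The part of depth in the difference was not tested. Summed erythroid markers stood at 6343 CPM without and 3779 CPM with high Stra8, and their part in the differences was not tested.

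The germ cell rule itself bears on this. At E14.5 the 53 cells with exactly 3 of the 6 germ cell genes, just inside the rule, stood at 34172 CPM for the nuclear sum, the 168 cells with 2 of them, just outside, at 30609, and the 301 cells with 4 at 44231.

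Between germ and supporting-like cells, the balance of single genes differed between the first and the last stage. At E11.5, 12 of 88 genes were higher in germ cells and 20 lower (24.3% and 43.3% of all rows), and with the median gene held level, which sets the germ cells up by 0.36, 27 were higher and 6 lower. At E14.5, 36 of 89 were higher and 6 lower (31.1% and 35.3% of all rows), or 39 and 6 with the median gene held level. The median log2 ratio of the 96 genes that passed was -0.06 at E11.5 and 0.45 at E14.5, beside -0.36 and -0.03 over all rows.

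On the CPM scale, complex I core subunits and complex II accounted for much of the lower side at E11.5. Of the 7 core subunits of complex I, 5 were lower in germ cells at E11.5 and 0 higher, and at E14.5 4 were higher and 0 lower. Those 5 depend on the scale: with the median gene held level, no core subunit was lower at E11.5 and Ndufs7 was higher. The 6 genes lower on that scale were Sdhc, Sdhd, Sdhaf1, Sdhaf2, Sdhaf3 and Ndufaf7. All 8 genes of complex II passed at both stages; 5 were lower in germ cells at E11.5 (Sdhc, Sdhd, Sdhaf1, Sdhaf2 and Sdhaf3), and at E14.5 3 assembly factors were still lower and 1 subunit, Sdhb, was higher. Sdhc stood at 49.0 CPM in germ and 126 in supporting-like cells at E11.5 (-1.36) and at 110 and 122 at E14.5 (-0.14). Sdhaf1, which helps to insert the iron-sulfur clusters of complex II, stood at 12.01 CPM in germ and 45.7 in supporting-like cells at E14.5 (-1.93), and Sdhaf3, with a similar role, at 14.9 and 36.0 CPM (-1.28). Sdhaf2, which attaches the flavin to Sdha, had 23.8 and 40.7 CPM (-0.77).

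After Cox7a1, 2 common subunits of complex IV had the highest ratios of germ to supporting-like cells at E14.5 among the genes that passed the minimums. Cox5a, a matrix-side subunit, stood at 1081 CPM in germ and 285 in supporting-like cells (1.92, 1.86 to 1.99), and Cox7c at 3577 and 1023 CPM (1.81, 1.77 to 1.84). Ndufa1 (318 and 104 CPM, 1.61) and Ndufs5 (791 and 274 CPM, 1.53) of complex I followed. Cox5a and Cox7c were also higher in germ cells at E11.5, by 0.90 and 1.33, whereas Ndufa1 was not called then (0.20). On the lower side, Ndufaf3 stood at 13.95 CPM in germ and 50.8 in supporting-like cells (-1.86), and Cox8a at 453 and 870 CPM (-0.94), after 1122 and 973 CPM at E11.5.

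**Figure D4:**
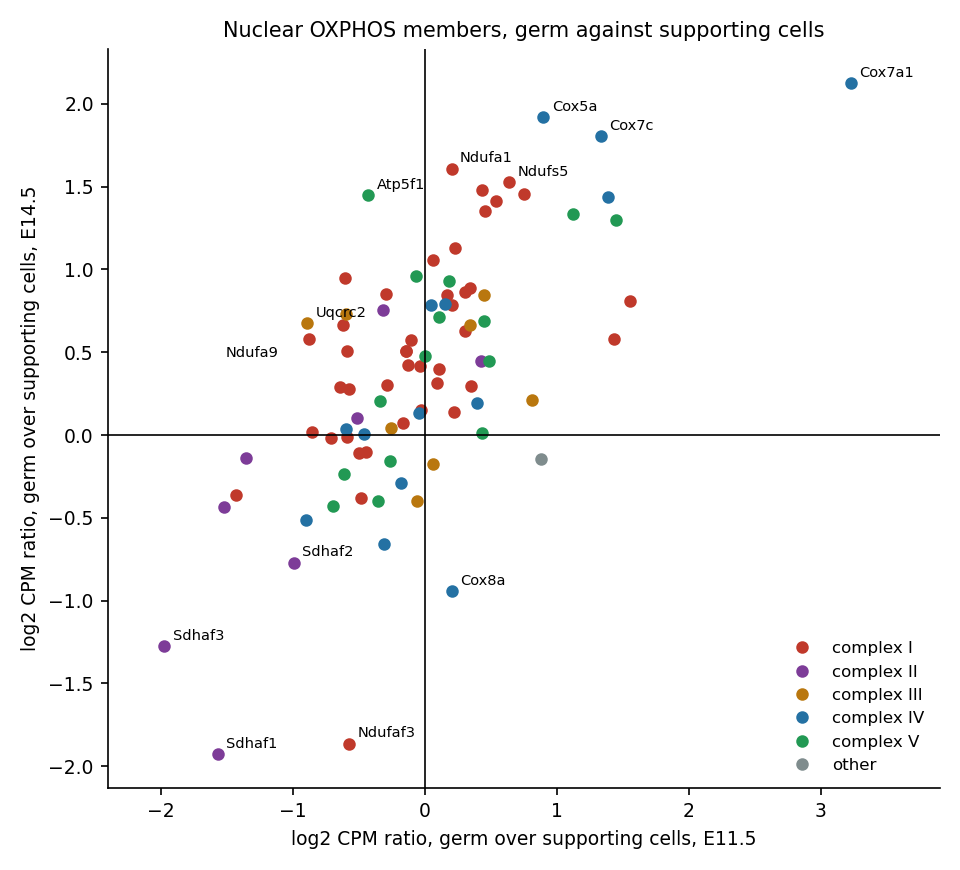
Log2 ratio of CPM in germ over supporting-like cells at E11.5 (horizontal axis) and at E14.5 (vertical axis), 1 point for each of the 88 genes that passed the minimums at both stages, coloured by complex. The highest point is Cox7a1, at 3.22 and 2.13, and the lowest points are Sdhaf1 at -1.93 and Ndufaf3 at -1.86 on the vertical axis.

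In supporting-like cells 1 of 87 genes (1.15%) rose and 10 (11.49%) fell from E11.5 to E14.5, beside 15.6% and 11.3% of all rows. The share that fell was thus close to that of all rows, and the summed log2 change was -0.25 for complex I, -0.15 for II, -0.20 for III, -0.33 for IV and -0.42 for V. The gene that rose was Cox7a1; among those that fell were Atp5b, the catalytic beta subunit of ATP synthase (-0.67), Cox5a (-0.64) and Sdhd (-0.74). In interstitial-like cells 0 of 85 rose and 4 fell (9.89% and 10.6% of all rows), or 0 and 1 with the median gene held level, and in endothelial-like cells 1 of 86 rose and 3 fell (11.8% and 13.3%), or 2 and 1. Cox7b, lower in germ cells at E14.5, was also lower in supporting-like (-0.77), interstitial-like (-0.59) and endothelial-like cells (-0.97), whereas Cox8a was called in none of these 3 classes.

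The 13 mt- genes are cut from long polycistronic transcripts. In germ cells 12 passed the minimums from E11.5 to E14.5; 0 rose and 3 fell (37.1% and 16.5% of all rows), or 0 and 7 with the median gene held level, where the change of the mt- sum went from -0.16 to -0.45. The 3 were mt-Nd2 (796 to 460 CPM, -0.79), mt-Nd3 (251 to 132 CPM, -0.93) and mt-Atp8 (29.9 to 18.5 CPM, -0.69). Mt-Co1, the catalytic subunit of complex IV, went from 4866 to 6272 CPM (0.37) and mt-Co3 from 8928 to 8206 CPM (-0.12), neither meeting the rule. At E14.5, 12 of 13 were lower in germ than in supporting-like cells (35.3% of all rows), from -0.68 for mt-Co3 to -2.37 for mt-Nd6, which is rare, and mt-Co2 had -0.49. In supporting-like cells 3 rose from E11.5 to E14.5 (15.6% of all rows): mt-Co1 (6437 to 11131 CPM, 0.79), mt-Co2 (2057 to 3298 CPM, 0.68) and mt-Nd6 (10.0 to 31.7 CPM, 1.66).

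Other genes of energy metabolism, from lists chosen beside the 96, were also read in germ cells. Of the 10 genes for mitochondrial carriers and cytochrome c, 2 rose and 5 fell from E11.5 to E14.5. For each list the shares over all rows are those given for this comparison above, 37.1% higher and 16.5% lower. Slc25a31, the germ cell form of the ADP/ATP carrier, stood at 12.3, 23.3, 45.5 and 175 CPM, a change of 3.83 (3.54 to 4.13), and lay at most at 3.52 CPM in supporting-like cells. The common forms declined over the same stages, Slc25a4 from 1253 to 401 CPM (-1.64) and Slc25a5 from 874 to 225 CPM (-1.96). Within E14.5, Slc25a31 stood at 39.4, 94.5 and 220 CPM with no, low and high Stra8 (2.48). Cyct, the testis form of cytochrome c, stood at 94.6 to 138 CPM among germ cells and at most 1.55 CPM in supporting-like cells, and Cycs, the common form, fell from 489 to 319 CPM (-0.62). Declines of the common forms were not confined to germ cells. In endothelial-like cells Slc25a5 (-0.93) and Cycs (-1.17) also fell from E11.5 to E14.5, and Slc25a4 changed by -0.44 without meeting the rule.

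Of 19 genes for glycolysis and lactate, 14 passed; 0 rose and 11 fell in germ cells, with a median of -1.21, and their sum went from 3780 to 1810 CPM (-1.06). Hexokinase 2 (Hk2) went from 53.9 to 9.28 CPM (-2.54) and pyruvate kinase (Pkm) from 748 to 298 CPM (-1.33). The same list declined in sum by -1.16 in supporting-like, -0.68 in interstitial-like and -1.10 in endothelial-like cells. For the citric acid cycle and pyruvate dehydrogenase, 3 of 16 rose, among them Idh3g (0.97) and Dld (16.6 to 41.9 CPM), and 1, Pdha1, fell. Of 18 genes for mitochondrial biogenesis and mtDNA expression 12 passed, with 0 that rose and 2 that fell, Pprc1 (-0.79) and Tfam, the packaging factor of mitochondrial DNA (57.2 to 36.4 CPM, -0.65). Of 12 complex IV assembly genes outside the 96, 9 passed; Cox10, an enzyme of heme a synthesis, rose from 16.6 to 41.4 CPM (1.32), and Cox20, a chaperone for a mitochondrially encoded subunit, fell from 39.3 to 21.8 CPM (-0.85).

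The nuclear share of a cell's UMIs had a median of 3.99% (5th to 95th percentile 3.34% to 4.99%, 245 cells) at E11.5 and 4.42% (3.65% to 5.13%, 2410 cells) at E14.5, and in supporting-like cells at E14.5 of 2.95% (2.47% to 3.54%). The ranges of the 2 cell types at E14.5 did not overlap between these percentiles.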

How the data were processed

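Single cells of XX mouse gonads were measured in 4 libraries, 1 per stage. The deposited table holds 19321 genes by 19387 cells; alignment and counting used Cell Ranger 2.2.0 and mm10, per the submitters' processing notes, and the normalization tool, cell filters and annotation are not given in the sources used here. Its values are the natural log of 1 plus the UMIs of a gene per 10000 UMIs of the cell, as deposited by the authors; counts had been assumed in the plan. UMI counts were recovered exactly: 100% of 69792436 values above 0 were whole multiples of 1 UMI at a relative tolerance of 1e-06. Median UMIs per cell were 14258, 12819, 11361 and 13348 in stage order.

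Cells with under 200 genes or over 20% mt- UMIs (5 in all) and those that Scrublet called doublets (1.96% to 2.30% per library; expected rate 0.06) were left out. The rest were clustered in scanpy 1.11.5 (2000 variable genes, 30 components, 15 neighbours, Leiden resolution 1, seed 1). Clusters were named from marker lists, needing at least 3 markers raised 2-fold; how ties are settled was chosen after the clusters were seen. UMIs were summed per class and stage, as CPM, with exact 95% intervals in scipy 1.17.1. No test was run, since each stage is 1 library. Named genes were the 10 largest rises and 10 largest falls, the 5 furthest up and 5 furthest down between germ and supporting-like cells and between Stra8 groups at E14.5, the isoform sets, the mt- rows and the succinate dehydrogenase subunits; a few others were named after their values were seen. The calling rule was tested on simulated data. The 96 genes and the lists were chosen with earlier results of these data known. Promoters and coordinates are from RefSeq (GRCm38.p6). Some results are not reported here.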

Additional observations from a re-analysis of the deposited data

Results flagged for a closer look

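Between E11.5 and E14.5, Atp5f1, Uqcrc2 and Ndufa9 were called higher in germ cells and lower in supporting-like cells. They are 3 of the 85 nuclear genes of oxidative phosphorylation that passed the minimums in both (3.53%), beside 92 of 4482 rows (2.05%). For Atp5f1 the log2 change was 1.23 in germ and -0.65 in supporting-like cells, a difference of 1.88. For Uqcrc2 the changes were 0.91 and -0.65, a difference of 1.57. For Ndufa9, an accessory subunit of complex I, they were 0.84 and -0.62, a difference of 1.47, and with the median gene held level Ndufa9 no longer met the rule in germ cells. The differences were not tested, because each stage is 1 library.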

How the results depend on the processing

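Each stage is 1 library, so no library could be left out. No paired analysis was possible because each group has 1 library and no comparison rests on a test. With the median gene held level, the change of the nuclear sum in germ cells from E11.5 to E14.5 turned from 0.09 to -0.20; it was 0.087 without doublet removal, 0.083 with at least 4 germ cell genes, 0.10 in germ cell clusters and 0.12 as a mean over cells. The mt- change of -0.16 became -0.45, -0.17 (clusters) and -0.19 (mean), and -0.15 without cells that share a barcode, an alternative chosen after seeing the data. At 2-fold, 8 genes were called in place of 30. For high against no Stra8 at E14.5, the nuclear difference of 0.17 became 0.092 (median gene), 0.11 (4 genes), 0.10 (clusters), 0.20 (mean), 0.16 (cells from 9791 UMIs) and 0.19 (Stra8 from 1000 CPM), and the mt- difference of -0.21 became -0.29, -0.16, -0.13 and -0.25, and -0.23 from 1000 CPM. The ratio of germ to supporting-like cells at E14.5, 0.57, became 0.60 (median gene), 0.53 (mt- rows out of the total), 0.56 (no doublet removal), 0.58 (clusters) and 0.61 (cells from 9791 UMIs). The supporting-like change of -0.31 became -0.28 (median gene), -0.29 (mt- rows out), -0.28 (mean) and -0.35 (cells from 9791 UMIs). The cause of these shifts was not tested.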
